A study of Mus musculus with 8 samples.

Results

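The results concern 10 genes of the Wnt and beta-catenin pathway in sorted mouse pro-B cells. They are the LEF and TCF transcription factors (Lef1, Tcf7, Tcf7l1 and Tcf7l2), beta-catenin itself (Ctnnb1), the cytoplasmic complex that marks beta-catenin for destruction (Axin1, Axin2, Apc and Gsk3b) and the inhibitor Nkd1. All probe sets that the platform annotation assigns to 1 of these symbols were taken, whatever their values. They were 29 probe sets of 9 genes, of 45037 probe sets and 18193 named genes on the array. The annotation used here pairs no probe set with Tcf7, which was not analysed here.

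Fraction B pro-B cells were sorted from bone marrow by the surface phenotype B220+CD43+HSA+BP-1- and their RNA, amplified once, was profiled on Affymetrix Mouse Genome 430 2.0 arrays. The menin-deficient group was 4 Rag1-cre;MenF/F mice, in which Cre recombinase driven from Rag1, a gene of early lymphocytes, deletes the loxP-flanked Men1 gene that encodes menin. The control group was 4 MenF/F mice, which carried the same floxed Men1 without Cre. All mice were 2-3 weeks old by the sample labels. Every menin-deficient mouse and no control carried Cre, so the presence of Cre and the loss of menin cannot be told apart. By genes of the sex chromosomes, 2 of 4 menin-deficient mice and 1 of 4 controls (replicate 3) were male.

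In canonical Wnt signalling a Wnt ligand binds a Frizzled receptor and an LRP co-receptor, which stops the Axin, APC and GSK3 complex from marking beta-catenin for destruction. Beta-catenin then enters the nucleus and binds LEF and TCF factors, which in its absence sit on DNA with Groucho (TLE) repressors. In mice LEF1 is expressed in pro-B cells and supports their proliferation and survival, and menin is known to bind beta-catenin.

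The promoter windows of the 3 measured LEF and TCF genes and of Axin2, a textbook beta-catenin target, are shown because these genes carry or report the transcriptional end of the pathway. Each window runs from 250 bases before to 50 bases after the outermost annotated start, 5′ to 3′ on the gene's strand (RefSeq, GRCm38.p6). Capitals mark the 6-base cores CTTTGA and CTTTGT that LEF and TCF factors are known to bind, searched on both strands. The windows lie at chr3:131110047-131110346 (plus strand, Lef1), chr6:72788996-72789295 (minus strand, Tcf7l1), chr19:55741560-55741859 (plus strand, Tcf7l2) and chr11:108920099-108920398 (plus strand, Axin2).
Lef1: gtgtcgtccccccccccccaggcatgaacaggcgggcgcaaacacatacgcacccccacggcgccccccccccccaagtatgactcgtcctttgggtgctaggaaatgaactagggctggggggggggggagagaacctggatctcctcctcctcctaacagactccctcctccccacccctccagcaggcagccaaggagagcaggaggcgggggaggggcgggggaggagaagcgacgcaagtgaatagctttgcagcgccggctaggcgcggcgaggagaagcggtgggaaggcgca
Tcf7l1: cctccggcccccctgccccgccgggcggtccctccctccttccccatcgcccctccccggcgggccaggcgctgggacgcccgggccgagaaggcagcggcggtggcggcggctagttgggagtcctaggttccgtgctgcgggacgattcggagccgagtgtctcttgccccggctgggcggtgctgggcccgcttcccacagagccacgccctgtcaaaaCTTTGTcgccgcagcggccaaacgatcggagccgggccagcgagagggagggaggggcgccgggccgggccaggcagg
Tcf7l2: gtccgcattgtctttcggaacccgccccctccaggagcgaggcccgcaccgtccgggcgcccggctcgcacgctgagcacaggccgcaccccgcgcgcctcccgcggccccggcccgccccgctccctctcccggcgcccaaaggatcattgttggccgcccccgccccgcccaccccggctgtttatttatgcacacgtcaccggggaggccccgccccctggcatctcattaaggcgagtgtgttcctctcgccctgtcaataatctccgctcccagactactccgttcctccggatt
Axin2: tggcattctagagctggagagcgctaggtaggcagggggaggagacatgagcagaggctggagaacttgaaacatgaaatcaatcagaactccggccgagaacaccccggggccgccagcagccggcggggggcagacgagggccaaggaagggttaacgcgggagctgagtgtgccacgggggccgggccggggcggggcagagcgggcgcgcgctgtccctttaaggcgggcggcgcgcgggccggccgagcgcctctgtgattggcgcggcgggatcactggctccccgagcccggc

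All 4 windows are rich in G and C, with 67.3% GC and 18 CpG dinucleotides for Lef1, 75.3% and 34 for Tcf7l1, 70.0% and 34 for Tcf7l2, and 70.0% and 31 for Axin2. The Tcf7l1 window holds a single CTTTGT, and the other 3 windows hold neither core. Windows were found for 8 of the 10 genes, and 2 of these held a core, Tcf7l1 and Gsk3b (CTTTGA on the minus strand). Across 26994 genes 31.3% of windows held either core (16.2% CTTTGA and 18.7% CTTTGT). A match describes letters only, and the arrays measured no binding.

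The values below are log2 signals, and differences are menin-deficient minus control. A probe set was tested if at least 4 of the 8 arrays placed it above their 40th percentile. A difference was called when limma's Benjamini-Hochberg adjusted p, over all 26790 tested probe sets, was under 0.05. Of the 29 probe sets 24 passed the filter. Clear signal above the lowest value of the table (2.08) was given by 21 probe sets of 8 genes, while the other 8 lay within 0.2 of it on every array, where no difference can be read. Levels of different probe sets are not set against each other, since each has its own sensitivity. The precision of every value is limited by the number of arrays.

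Men1 was checked first. Its brightest probe set read 7.85, 8.24, 8.50 and 8.03 in the menin-deficient arrays, against 9.59, 9.19, 9.58 and 9.81 in the controls, a difference of -1.39 ± 0.18 (SE, n = 4 each, limma adjusted p = 0.00617). All 3 Men1 probe sets were lower on every menin-deficient array than on any control. The 13 measured genes of the B-lineage marker list summed to between 18.72 and 18.82 in menin-deficient arrays and between 18.66 and 18.76 in controls, on the log2 scale, a sum that the brightest probe sets dominate. Of these 13 genes 3 were called in the fit by gene, 15.4% of them higher and 7.69% lower. These shares are near the 16.2% and 5.17% of all tested genes. Dntt, the terminal transferase (0.35), and Igll1, of the surrogate light chain (0.38), were higher, and Rag1 (-0.28) was lower. Rag1 drives the Cre, which only the menin-deficient mice carried, and the part of the Cre in the Rag1 difference was not tested. Arrays of the same group correlated at 0.991 to 0.996, and arrays of different groups at 0.985 to 0.991.

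Genes known from other blood cells and other B-cell stages also differed between the groups, where 16.2% of all tested genes were higher and 5.17% lower. Of the T-cell list 15 of 16 genes were on the array, 10 were tested and 6 were higher without menin (among them Thy1 by 2.65, Lat by 1.76 and Cd28 by 0.98 on the log2 scale). For Cd28 3 controls shared the low value 2.49, so the error of its difference is not usable. Its size is a lower bound if that value is a floor. The log2 of the T-cell list's summed level lay between 12.46 and 12.87 in menin-deficient arrays and between 11.50 and 12.26 in controls, with Cd3e and Cd8b1 at the lowest value on all 8 arrays. Of the NK and innate lymphoid list 3 of 10 tested genes were higher, with summed levels of 11.64 to 12.74 in menin-deficient arrays and 10.90 to 11.53 in controls, and with Il2rb and Zbtb16 at the lowest value. Plasmacytoid dendritic genes (2 of 10 higher) summed to between 14.04 and 14.27 in menin-deficient arrays and between 13.37 and 13.77 in controls. Monocyte genes (3 of 9 higher) summed to between 14.37 and 15.13 in menin-deficient arrays and between 13.91 and 14.19 in controls. The plasmacytoid dendritic share of 20% is near that of all genes. Of 10 granulocyte progenitor genes none was called, of 6 tested erythroid genes Car1 was higher (0.73) and of 5 stromal and endothelial genes none was called. The erythroid share of 16.7% is also near that of all genes. Mature B and plasma cell genes went the other way, with 2 of 8 lower (Jchain, the antibody joining chain, by -2.85, and Sdc1, the plasma cell syndecan CD138, by -1.16). Their sums ran from 14.47 to 15.04 in menin-deficient arrays and from 14.79 to 15.30 in controls. Among 7 genes of uncommitted progenitors Cd48 was higher (0.44) and Meis1 was lower (-1.19), which is 14.3% each way. T cells are known to use Lef1 too. The part of these genes in the results below was not tested, and in bulk samples fewer cells of a type and less RNA per cell cannot be told apart.

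Lef1 was higher and Tcf7l1 was lower in the menin-deficient cells, Apc was higher, and Ctnnb1, Axin1 and Gsk3b showed no called difference. Lef1 rose 1.49-fold and Apc 1.34-fold on their brightest probe sets, and Tcf7l1 fell 1.98-fold. Of the 24 tested probe sets 5 were called, 4 higher and 1 lower, which is 20.8%. The background was 14.2% of all tested probe sets (9.34% higher and 4.87% lower), so the share alone does not set these genes apart. With the brightest tested probe set standing for each gene, 3 of 9 genes were called, 2 higher and 1 lower. That is 33.3%, against 21.3% of all 11885 genes tested (16.2% higher and 5.17% lower). The genes were chosen with earlier results of these data known, and the 9 include Nkd1, which gave no readable signal. The share by gene is therefore no test of them. The median difference was 0.08 over the 9 genes and 0.11 over all tested genes.

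A small upward shift, with a median of 0.11 over tested genes and 0.04 over tested probe sets, matters for the smaller rises. When each array was centred on its median tested gene, 0.13 was removed from every difference. For probe sets this is more than their own median difference. After this centring 1 of the 24 probe sets was higher and 2 were lower, with a background of 13% (4.69% higher and 8.29% lower). Lef1 remained higher on its brighter probe set (0.45, adjusted p = 0.0146) and Tcf7l1 remained lower (-1.11, adjusted p = 0.00764). Gsk3b 1439949_at was then also lower (-0.45, adjusted p = 0.0257), and neither Apc probe set was called (0.30 for both, adjusted p = 0.0902 and 0.0935). With centring on the median probe set instead, the Apc differences were 0.35 for both (limma adjusted p = 0.0575 and 0.107). That of Gsk3b 1439949_at was -0.40 (adjusted p = 0.0474).

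**Figure D1:**
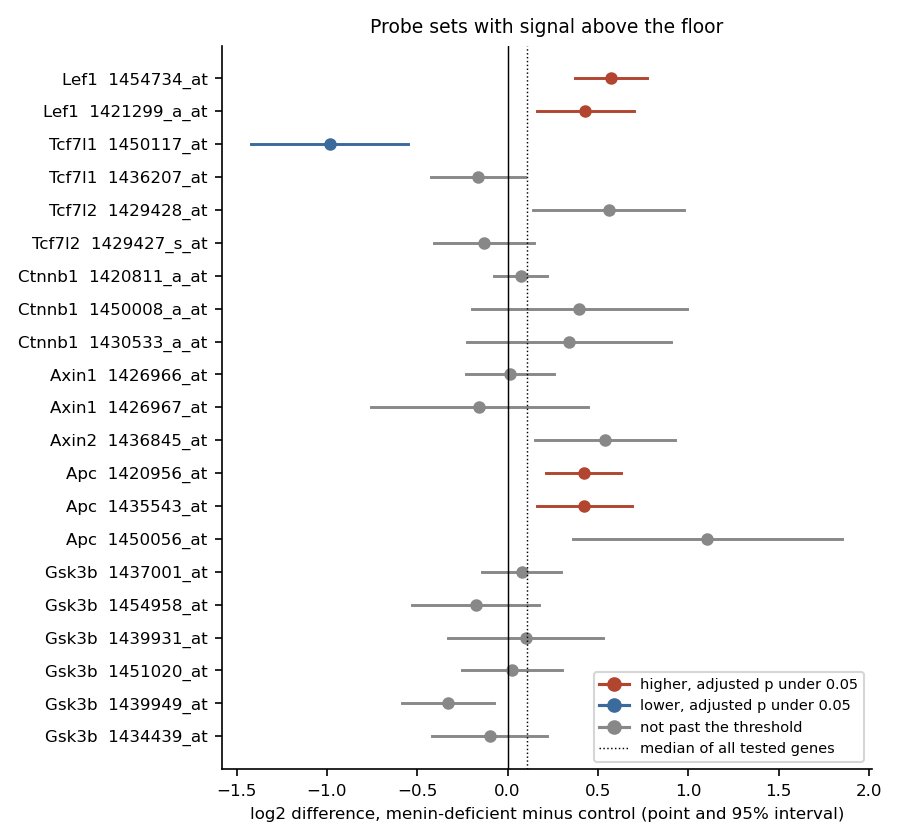
Log2 difference, menin-deficient minus control, of each of the 21 probe sets with clear signal, as a point with its 95% interval (x axis), 1 probe set a line; the dotted line is the median of all tested genes (0.11). Lef1 and 2 Apc probe sets lie to the right in red, and 1 Tcf7l1 probe set lies to the left at -0.98 in blue.

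Lef1 encodes lymphoid enhancer-binding factor 1, and both of its probe sets were higher without menin. On 1454734_at the values were 13.64, 13.90, 13.98 and 13.75 in menin-deficient arrays, against 13.14, 13.22, 13.31 and 13.33 in controls. Every menin-deficient array was above every control. The mean was 13.82 ± 0.152 in menin-deficient cells and 13.25 ± 0.0872 in controls (SD, n = 4 each), and the difference of 0.57 had a 95% interval of 0.37 to 0.77 (limma adjusted p = 0.0093). That call held under all 20 alternative settings of the probe-set fit, with differences between 0.45 and 0.63.

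On 1421299_a_at Lef1 read 9.79, 10.11, 10.21 and 9.83 in menin-deficient arrays, against 9.56, 9.42, 9.70 and 9.54 in controls. The groups again did not overlap, although the lowest menin-deficient array and the highest control were close. The difference was 0.43 ± 0.11 (SE), with an interval of 0.16 to 0.70 and a limma adjusted p of 0.0472. This call is near the threshold and was lost when any 1 array other than menin-deficient replicate 1 was left out (adjusted p between 0.0566 and 0.123, differences between 0.36 and 0.48). The rise of the brighter probe set exceeded that of the dimmer by 0.14, which an exact two-sided permutation test over the arrays did not separate from 0 (p = 0.143, adjusted over 15 pairs of probe sets 0.306). The smallest p that 4 against 4 arrays allow is 0.0286.

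Tcf7l1 encodes a TCF that acts mainly as a repressor, as known from mouse embryonic stem cells. On 1450117_at it read 6.16, 5.84, 5.62 and 5.71 in menin-deficient arrays, against 6.73, 6.51, 7.26 and 6.77 in controls. All 4 menin-deficient arrays were below all 4 controls, with control replicate 3 the highest. The means were 5.83 ± 0.235 in menin-deficient cells and 6.82 ± 0.315 in controls (SD, n = 4 each), a difference of -0.98 with an interval of -1.42 to -0.55 (limma adjusted p = 0.0174). The adjusted p was 0.0525 without menin-deficient replicate 2, at a difference of -0.99.

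The other Tcf7l1 probe set, 1436207_at, lay closer to the floor. It read 4.44, 4.30, 4.41 and 4.62 in menin-deficient arrays, against 4.56, 4.37, 4.81 and 4.68 in controls. The groups overlapped, and the difference of -0.16 (interval -0.42 to 0.10) was not called (adjusted p = 0.37). The differences of the 2 probe sets were themselves unequal by -0.82 (exact permutation p = 0.0286, the smallest possible, adjusted over 15 pairs 0.143). The Tcf7l1 call rests on 1 probe set, and with the mean of both the difference was -0.57 (adjusted p = 0.0265 in the fit by gene).

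Tcf7l2, another TCF with activating and repressing forms, was not called. Its brightest probe set, 1429428_at, read 10.76, 10.73, 10.32 and 10.38 in menin-deficient arrays, against 9.84, 9.80, 10.44 and 9.87 in controls. Of the controls 3 lay below every menin-deficient array, and control replicate 3, the male control, lay within the menin-deficient range. The difference was 0.56 ± 0.18 (SE), with an interval of 0.14 to 0.98 and a limma adjusted p of 0.0808. Without control replicate 3 it was 0.71 (adjusted p = 0.0242), and with sex as a covariate 0.44 (adjusted p = 0.0116).

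The probe set 1429427_s_at of Tcf7l2 gave another picture. It read 6.85, 6.59, 6.68 and 6.73 in menin-deficient arrays, against 6.91, 6.61, 7.12 and 6.73 in controls. The groups overlapped throughout, with a difference of -0.13 (interval -0.41 to 0.15, adjusted p = 0.504). Relative to it the brightest probe set was 0.69 higher in the menin-deficient group (exact permutation p = 0.0286, adjusted 0.143). The remaining 2 Tcf7l2 probe sets stayed within 0.2 of the lowest value.

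Among the TCF genes the differences between groups were set against each other within each array. Lef1 and Tcf7l1 moved apart by 1.56 (exact two-sided permutation p = 0.0286, adjusted over 2 pairs 0.0571). The groups of each gene were already apart, in opposite directions, so this p had to be the smallest possible and adds nothing to those results. The Lef1 difference exceeded that of Tcf7l2 by 0.01 (exact permutation p = 0.971), although that of Tcf7l2 was more variable. With 4 arrays a group an adjusted p under 0.05 was out of reach for 2 pairs unless both had the smallest p.

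**Figure D2:**
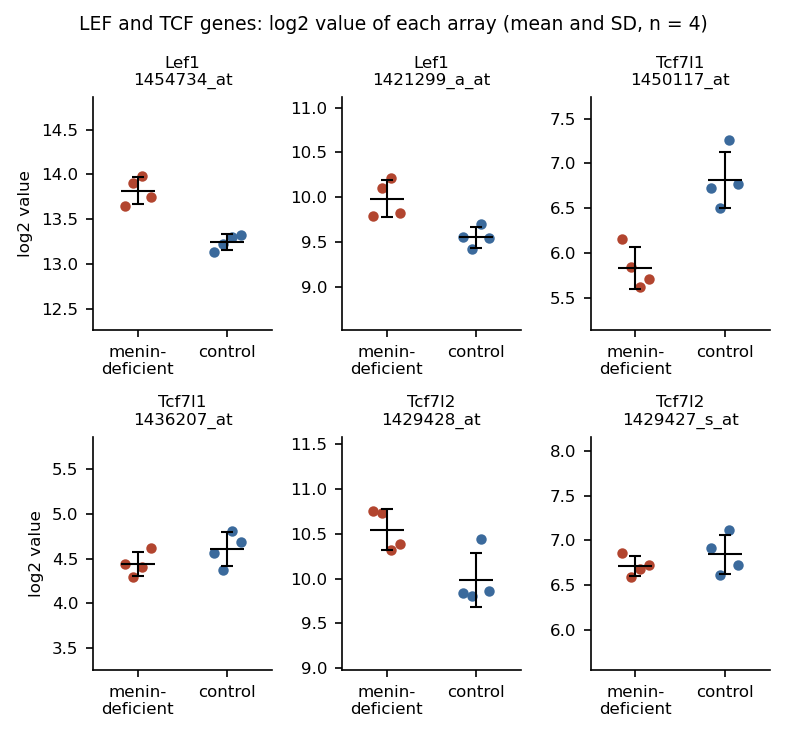
Log2 value of each array (points) with the mean and SD of its group (bars, n = 4), for 2 probe sets each of Lef1, Tcf7l1 and Tcf7l2, menin-deficient arrays on the left in red and controls on the right in blue; every panel has its own y axis. Both Lef1 panels and the first Tcf7l1 panel show groups that do not overlap, and in the Tcf7l2 1429428_at panel a single control at 10.44 lies among the menin-deficient arrays.

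Genes were then sought whose profile over the 8 arrays was most like that of each measured TCF gene, by the root mean square difference of log2 values after each gene's own mean was subtracted. For Lef1 these were Itga4, the alpha-4 integrin of homing lymphocytes (0.0518), Slc25a45, a mitochondrial carrier (0.0601), and Il16, a lymphocyte cytokine (0.0661), where the median over all genes was 0.311. For Tcf7l1 they were Cwf19l1 (0.109), Iglv1, an immunoglobulin light chain segment (0.134), and Ttc13 (0.163), with a median of 0.621. For Tcf7l2 they were Sqle, squalene epoxidase of sterol synthesis (0.0846), Tex264 (0.106), an endoplasmic reticulum autophagy receptor, and Kif1b, a kinesin motor (0.109), with a median of 0.371. All of these points share the same 8 arrays and the same split into groups.

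Ctnnb1, which encodes beta-catenin, showed no called difference. On 1420811_a_at it read 15.42, 15.48, 15.39 and 15.50 in menin-deficient arrays, against 15.27, 15.35, 15.53 and 15.35 in controls. The groups overlapped through control replicate 3, and the difference of 0.07 had an interval of -0.07 to 0.22 (adjusted p = 0.476). On this probe set a rise of more than 0.22 lies outside the interval.

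The dimmer Ctnnb1 probe sets were less precise. On 1450008_a_at the values were 8.64, 9.48, 8.63 and 9.02 in menin-deficient arrays and 8.58, 8.07, 8.57 and 8.96 in controls, a difference of 0.40 (interval -0.20 to 0.99, adjusted p = 0.337). On 1430533_a_at they were 4.53, 5.15, 4.90 and 4.61 in menin-deficient arrays and 4.48, 4.69, 3.85 and 4.82 in controls, a difference of 0.34 (interval -0.22 to 0.91, adjusted p = 0.387). In both the groups overlapped. An RNA level says nothing of the protein that the pathway regulates.

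Apc, the scaffold tumour suppressor of the destruction complex, rose on its 2 bright probe sets. On 1420956_at it read 12.17, 12.51, 12.38 and 12.46 in menin-deficient arrays, against 12.01, 11.99, 11.81 and 12.02 in controls. The groups did not overlap, and the difference was 0.42 ± 0.09 (SE), a 1.34-fold rise with an interval of 0.21 to 0.63 (limma adjusted p = 0.0238). The call was lost without control replicate 1 or menin-deficient replicate 2, 3 or 4 (adjusted p between 0.0542 and 0.0649, differences between 0.38 and 0.44).

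On 1435543_at Apc read 12.20, 12.30, 12.58 and 12.17 in menin-deficient arrays, against 11.78, 11.81, 12.09 and 11.85 in controls. The difference of 0.43 ± 0.11 (SE, adjusted p = 0.047) equalled that of the first probe set to within 0.01 (-0.0053, exact permutation p = 0.971). Leaving out any 1 array other than control replicate 3 ended the call (adjusted p between 0.0618 and 0.116, differences between 0.34 and 0.47). Both bright probe sets thus gave a rise of like size, near the limit of what the test calls.

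A dimmer Apc probe set, 1450056_at, read 5.25, 5.49, 5.74 and 6.43 in menin-deficient arrays, against 4.07, 4.97, 4.44 and 5.02 in controls. Its groups did not overlap either, but the difference of 1.11 (interval 0.36 to 1.85) had an adjusted p of 0.0612. Apc 1420957_at lay within 0.2 of the lowest value on all 8 arrays.

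Axin1, the scaffold that limits assembly of the complex, showed no called difference on either probe set. On 1426966_at it read 12.16, 12.03, 12.40 and 12.16 in menin-deficient arrays, against 11.99, 12.28, 12.12 and 12.30 in controls. The difference was 0.01, with an interval of -0.23 to 0.26 (adjusted p = 0.97). On 1426967_at the values were 5.84, 5.31, 5.74 and 5.74 in menin-deficient arrays and 5.83, 5.20, 6.41 and 5.82 in controls, a difference of -0.16 (interval -0.76 to 0.44, adjusted p = 0.723).

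Axin2, its inducible relative, was weakly measured. On 1436845_at it read 3.71, 4.39, 3.99 and 4.45 in menin-deficient arrays, against 3.59, 3.59, 3.59 and 3.63 in controls. Every menin-deficient array was above every control, but 3 controls shared the same low value, so neither the control spread (SD 0.0216) nor an interval built on it is a usable error. The values differed by 0.54, which is a lower bound in size if the shared value is a floor, and were not called (adjusted p = 0.0724). Without menin-deficient replicate 1 it was 0.68 (adjusted p = 0.0199). The other Axin2 probe set was at the lowest value on all 8 arrays.

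Gsk3b, the kinase of the complex, has 6 probe sets, none of which was called. The brightest, 1437001_at, read 12.93, 12.84, 12.81 and 12.79 in menin-deficient arrays, against 12.83, 12.99, 12.62 and 12.61 in controls, a difference of 0.08 (interval -0.14 to 0.30, adjusted p = 0.611). The menin-deficient values lay inside the control range.

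The next brightest, 1454958_at, read 11.14, 11.30, 10.76 and 10.66 in menin-deficient arrays and 11.04, 11.20, 11.22 and 11.10 in controls, a difference of -0.18 (adjusted p = 0.478). On 1439931_at, 1451020_at and 1434439_at the differences were 0.10, 0.02 and -0.10 (adjusted p = 0.755, 0.926 and 0.666). On 1439949_at the values were 7.86, 7.67, 7.71 and 7.47 in menin-deficient arrays, against 8.07, 7.77, 8.06 and 8.12 in controls. Here the groups overlapped through control replicate 2 alone, and the difference of -0.33 (interval -0.58 to -0.07) had an adjusted p of 0.0889, or 0.0439 without that array (-0.41).

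Nkd1, an inhibitor that binds Dishevelled and a beta-catenin target in several mouse and human tissues, gave no readable signal. Its 4 probe sets did not exceed 2.19 on any array, where the lowest value is 2.08, and no difference is given.

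**Figure D3:**
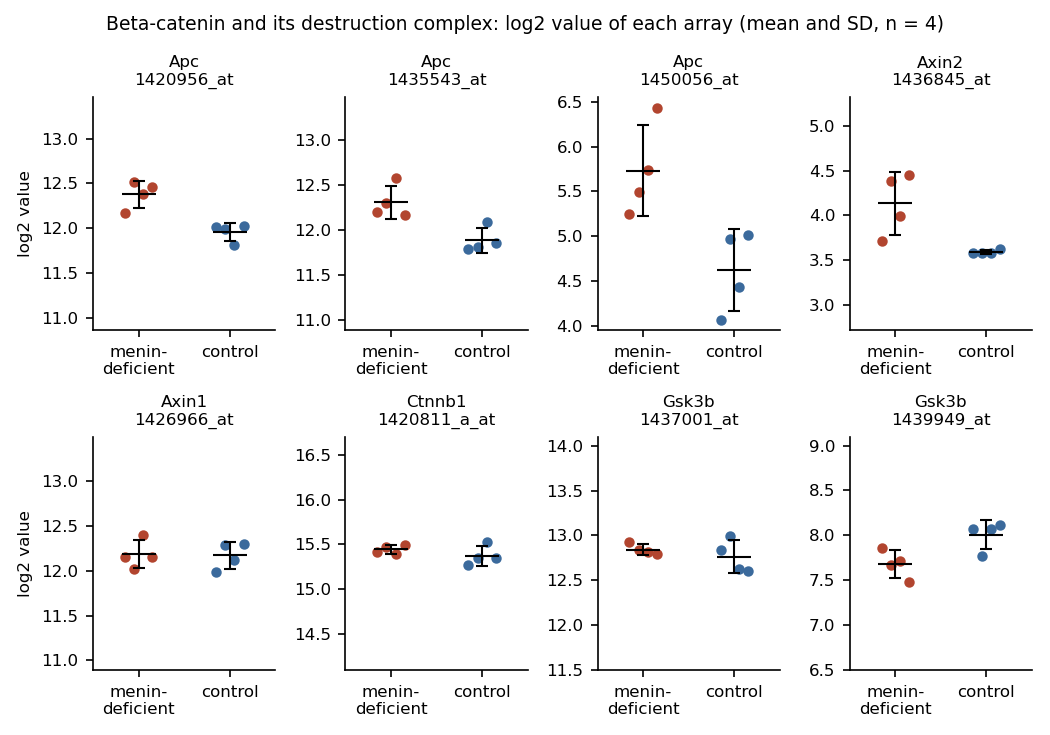
Log2 value of each array (points) with the mean and SD of its group (bars, n = 4) for 8 probe sets of Apc, Axin2, Axin1, Ctnnb1 and Gsk3b, menin-deficient arrays on the left in red and controls on the right in blue; every panel has its own y axis. The 3 Apc panels and the Axin2 panel show groups that do not overlap, and the Axin1, Ctnnb1 and Gsk3b panels show overlap.

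Of the 24 tested probe sets, 6 had all menin-deficient arrays above all controls and 1 had them all below. Over all tested probe sets 21.4% had groups that do not overlap. Probe sets of the same gene are not independent of each other, since they read the same RNA.

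The other genes of the pathway were read from lists by role, in the fit with 1 probe set a gene. Outside the 10 genes, 94 of 153 listed pathway genes were tested, and 16 were higher and 8 lower without menin. These are 17% and 8.51% of those tested, against 16.2% and 5.17% of all genes, and the median difference was 0.12 against 0.11. The 8 lower include Men1, the deleted gene, so part of their share was fixed by the design. Men1 is also among the genes counted after centring and without each array. After centring on the median tested gene the counts were 9 higher and 10 lower, against 7.67% and 8.17% of all genes. Leaving out menin-deficient replicate 2 gave 10 higher and 3 lower, and leaving out any of the other 7 arrays gave 11 to 16 higher and 3 to 6 lower.

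Ligands were few. Of 21 genes for Wnt proteins and their secretion 8 were tested, and only Wnt10a was called (12.5% lower, against 5.17% of all genes). It differed by -0.46 (adjusted p = 0.0435) at a low level of 3.30 in menin-deficient arrays and 3.76 in controls. In the probe-set fit Wnt10a was not called (limma adjusted p = 0.0572). Of its menin-deficient arrays 3 shared the value 3.27, so the error of this difference is not usable and its size is a lower bound if that value is a floor. Its groups met at 1 value, and its call was lost when any 1 array other than control replicate 2 was left out (adjusted p between 0.0767 and 0.106, differences between -0.49 and -0.39).

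None of the 8 tested Frizzled receptors and co-receptors (of 16) was called, against 21.3% of all genes, and their median difference was 0.19. The co-receptor Lrp6 averaged 11.71 in menin-deficient arrays and 11.49 in controls (0.22 ± 0.07 SE, adjusted p = 0.0638). Without control replicate 4 its adjusted p was 0.0351 (0.27), and its dimmer probe set differed by -0.48 (adjusted p = 0.151 in the probe-set fit). The receptor Fzd7 averaged 5.72 in menin-deficient arrays and 5.41 in controls (0.31, adjusted p = 0.116). Without control replicate 2 it was past the threshold (0.42, adjusted p = 0.0283).

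Among R-spondins, their receptors and the ubiquitin ligases they control, 1 of 4 tested genes (of 9) was called. That is 25%, against 21.3% of all genes, and the median difference was -0.06. Lgr4, a receptor that heightens the response to Wnt, read 8.68, 8.84, 8.36 and 8.65 in menin-deficient arrays, against 6.69, 5.54, 6.69 and 7.09 in controls. No array of either group reached the range of the other. The difference of 2.13 ± 0.32 (SE, adjusted p = 0.00645) held under all 21 alternatives but rests on 1 tested probe set. Lgr4 lies within 10 Mb of Rag1, the gene that drives the Cre. In that window 26 of 62 tested genes were called (41.9%), against 21.3% of all tested genes. The part of that neighbourhood in the Lgr4 difference was not tested.

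Secreted and cell-surface inhibitors gave 3 higher (42.9%) and none lower among 7 tested genes (of 18), with a median difference of 0.05. Over all tested genes 16.2% were higher and 5.17% lower, and the share of so few genes was not tested. Dkkl1, a relative of the Dickkopf inhibitors, read 9.06, 8.57, 8.75 and 8.49 in menin-deficient arrays, against 7.69, 7.79, 7.74 and 7.34 in controls (1.08 ± 0.15 SE, adjusted p = 0.00532). Kremen1, a receptor through which Dickkopf removes LRP co-receptors, rose by 0.85 ± 0.15 (adjusted p = 0.0103) on its brightest probe set, its dimmer one differed by 0.11 (adjusted p = 0.689 in the probe-set fit), and their mean gave 0.48 (adjusted p = 0.0394). Dkk3, a divergent Dickkopf, rose by 0.72 ± 0.16 (adjusted p = 0.0214, or 0.0514 without control replicate 2 at 0.67). All 3 were also higher after centring, and the Dkkl1 difference rests on 1 tested probe set.

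Among cytoplasmic transducers 26 of 33 genes were tested, 5 were higher (19.2%) and 3 lower (11.5%), and the median difference was 0.01. The background over all genes was 16.2% higher and 5.17% lower. Gsk3a, the sister kinase of Gsk3b, read 8.32, 7.93, 8.51 and 8.22 in menin-deficient arrays, against 9.41, 9.49, 9.47 and 9.08 in controls. Every menin-deficient array was below every control. The difference was -1.12 ± 0.14 (SE, adjusted p = 0.00399), a 2.17-fold fall that held under all 21 alternatives but rests on 1 probe set.

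Other called transducers moved less. Tnks, the tankyrase that marks Axin for degradation, rose by 0.50 ± 0.08 (adjusted p = 0.00738) on its brightest probe set, and with the mean of its probe sets the rise was 0.24 (adjusted p = 0.191). Cby1, an antagonist of beta-catenin, rose by 0.45 ± 0.08 on its only tested probe set (adjusted p = 0.00946, or 0.0557 after centring on the median probe set). Cxxc5, a Dishevelled-binding inhibitor, rose by 0.35 ± 0.07 (adjusted p = 0.0132) and was no longer called after centring (0.22).

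The remaining calls in this list were Csnk1e (0.68) and Csnk1g2 (0.30), both casein kinases, and Usp34 (-0.22) and Siah1a (-0.41), a ubiquitin protease and a ubiquitin ligase. These 4 fall outside the rule for named genes and were added after their values were seen. Csnk1e lost its call without menin-deficient replicate 2 (0.65, adjusted p = 0.0541), and Csnk1g2 without any array but control replicate 3 or menin-deficient replicate 1 (0.27 to 0.30, adjusted p between 0.0505 and 0.0611). Usp34 lost it without any array but control replicate 2 (-0.24 to -0.18, adjusted p between 0.0537 and 0.106), and Siah1a without any but menin-deficient replicate 4 (-0.46 to -0.32, adjusted p between 0.0608 and 0.115). With the mean of its probe sets Siah1a differed by 0.03 (adjusted p = 0.79) and Usp34 by -0.03 (adjusted p = 0.837). After centring Csnk1g2 was no longer called (0.17, adjusted p = 0.128), and Usp34 differed by -0.34.

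Nuclear partners of beta-catenin and TCF factors gave 5 higher (21.7%) and 3 lower (13%) among 23 tested genes (of 25), with a median difference of 0.17. Of all genes 16.2% were higher and 5.17% lower. Men1, itself among the lower genes of that list, is the deleted gene. Tle3, a Groucho corepressor, read 13.49, 13.62, 13.80 and 13.71 in menin-deficient arrays, against 12.86, 13.01, 13.32 and 12.75 in controls (0.67 ± 0.13 SE, adjusted p = 0.0144). The groups did not overlap on that probe set. Over the mean of its probe sets Tle3 differed by 0.35 (adjusted p = 0.109).

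Ctbp2, another corepressor, rose by 0.58 ± 0.07 (adjusted p = 0.00268) on its brightest probe set, but another of its probe sets gave -0.39 (adjusted p = 0.136 in the probe-set fit), and their mean gave 0.10 (adjusted p = 0.416). Bcl9, which joins beta-catenin to Pygopus, rose by 0.25 ± 0.05 (adjusted p = 0.0176), and was no longer called after centring (0.13). Its dimmer probe set differed by -0.38 (adjusted p = 0.449 in the probe-set fit). The other calls were Ruvbl2 (0.37), Ruvbl1 (0.30), Ep300 (-0.60) and Hipk2 (-0.24), named after their values were seen. Of these, Ep300, a histone acetyltransferase and coactivator, lost its call without control replicate 4 (-0.54, adjusted p = 0.0525) or menin-deficient replicate 2 (-0.55, adjusted p = 0.0609). Ruvbl2 lost it without control replicate 1 or menin-deficient replicate 2 or 4 (0.35 to 0.36, adjusted p between 0.0507 and 0.0568). Ruvbl1 lost it without any array but control replicate 2 or menin-deficient replicate 3 (0.26 to 0.30, adjusted p between 0.0673 and 0.0835), and Hipk2 without any but control replicate 4 or menin-deficient replicate 2 (-0.26 to -0.20, adjusted p between 0.0508 and 0.0681). After centring Ruvbl2 (0.24, adjusted p = 0.135) and Ruvbl1 (0.18, adjusted p = 0.229) were no longer called and Hipk2 differed by -0.36. With the mean of its probe sets Hipk2 differed by -0.14 (adjusted p = 0.235).

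Genes widely reported as beta-catenin targets gave 1 higher and 1 lower among 15 tested (of 28), with a median difference of 0.07. That is 6.67% each way, against 16.2% higher and 5.17% lower over all genes. Cd44, an adhesion receptor, read 11.74, 12.15, 12.15 and 12.24 in menin-deficient arrays, against 13.09, 12.89, 12.44 and 12.96 in controls (-0.77 ± 0.17 SE, adjusted p = 0.02). All 3 of its probe sets were lower. Leaving out 1 array gave an adjusted p of 0.0525 for control replicate 1 (-0.69), 0.0531 for control replicate 4 (-0.73) and 0.0503 for menin-deficient replicate 2 (-0.80), and Cd44 lies within 10 Mb of Rag1. Bambi, a decoy receptor of TGF-beta signalling, rose by 0.87 ± 0.23 (adjusted p = 0.0362) on its only tested probe set. That call was lost without any 1 array other than control replicate 2 (adjusted p between 0.054 and 0.0919, differences between 0.72 and 0.96) and after centring.

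Of the 3 genes listed as responding to LEF1 in pro-B cells none was called, against 21.3% of all genes. Their median difference was 0.08. Rag2, of the V(D)J recombinase, averaged 13.10 ± 0.273 in menin-deficient arrays and 12.77 ± 0.398 in controls (SD, n = 4 each, limma adjusted p = 0.331). Rag2 lies within 10 Mb of Rag1, the gene that drives the Cre, and the part of that neighbourhood was not tested. Myc, a growth regulator, averaged 10.61 in menin-deficient arrays and 10.68 in controls, a difference of -0.06 (interval -0.49 to 0.36, adjusted p = 0.839). Fas, a death receptor added to complete the list, averaged 4.19 in menin-deficient arrays and 4.11 in controls and differed by 0.08 (adjusted p = 0.879). Among cadherins and catenins of adherens junctions 1 of 4 tested genes (of 7) was called (25%, against 21.3% of all genes). It was Ctnna1, by 0.16, while differences of -0.16 and -0.14 were given by its other probe sets. That call was lost without any array but control replicate 3 or menin-deficient replicate 1 (adjusted p between 0.0769 and 0.0968, differences between 0.15 and 0.17) and after centring (0.04, adjusted p = 0.687). In the probe-set fit the brightest Ctnna1 probe set was not called (limma adjusted p = 0.051).

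**Figure D4:**
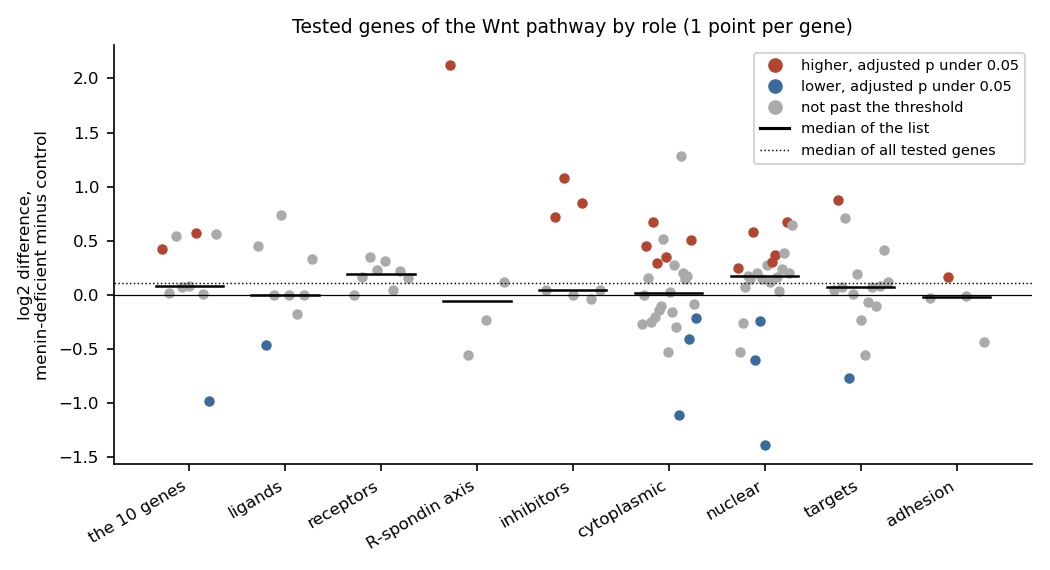
Log2 difference, menin-deficient minus control (y axis), of tested pathway genes, grouped by role along the x axis. Each point is 1 gene in 1 list, and Lgr5, Znrf3 and Apcdd1 are drawn in more than 1 list. The genes listed as responding to LEF1 in pro-B cells have no group of their own. The median of each list is a bar, and that of all tested genes (0.11) is a dotted line. Points past the threshold are red where higher and blue where lower; Lgr4 is the highest point at 2.13 and Men1 the lowest at -1.39.

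How far each difference moved with the processing was plotted for the 9 probe sets of most interest, all of which kept their direction under each alternative run. The Lef1 probe set 1454734_at was past the threshold under all 20, Tcf7l1 1450117_at under 17 of 19, and Apc 1420956_at under 12 of 20. The second Lef1 probe set, 1421299_a_at, was past it under 7 of 20 and Apc 1435543_at under 8 of 20.

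**Figure D5:**
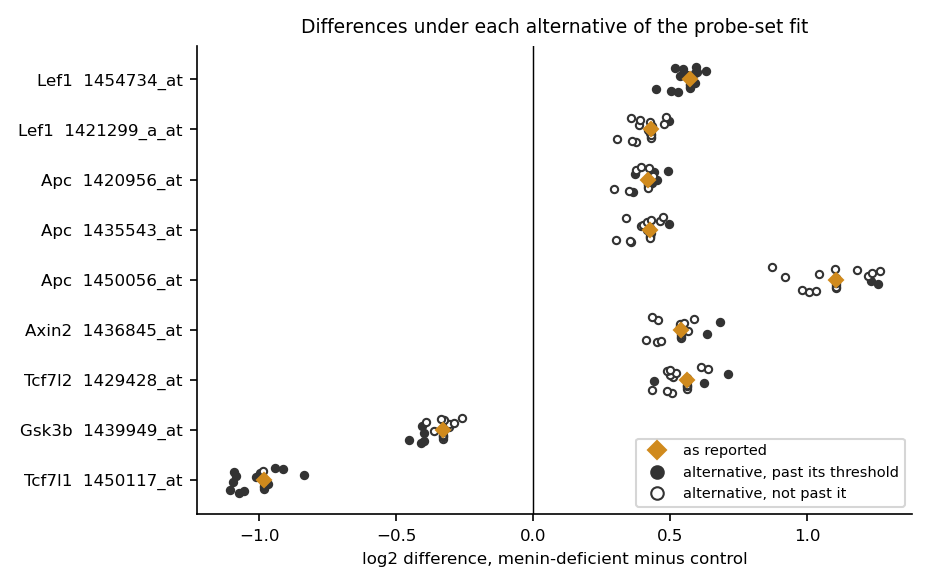
Log2 difference, menin-deficient minus control (x axis), of 9 probe sets of Lef1, Apc, Axin2, Tcf7l2, Gsk3b and Tcf7l1 as reported (diamonds) and under each alternative setting (circles, filled where past that setting's threshold). Circles of every probe set stay on 1 side of 0, and those of Lef1 1454734_at are filled throughout, between 0.45 and 0.63.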

How the data were processed

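RNA of the sorted pro-B cells went through 1 round of amplification before biotin labelling and hybridisation, per the labels' protocols. The values the authors deposited lie between 2.08 and 17.4 and were taken as log2 signals from that range. MAS5 and GCRMA are named in the submitters' processing notes, and the choice between them for these values was not given in the sources used. Array medians ran from 3.29 to 3.50. The 64 control probe sets were left out.

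Groups came from the sample titles, and the labels describe separate mice. The difference between groups was fitted by limma 3.58.1 in R 4.3.3 (functions lmFit and eBayes), with Benjamini-Hochberg adjustment over 26790 probe sets, and again over 11885 genes with the brightest probe set of each. The adjusted p-values given for the 10 genes and for Men1 come from the first fit and those of pathway lists from the second, unless stated. Pairs of probe sets were compared by exact two-sided permutation over the 70 splits of the arrays. The fit was tested on simulated data. Symbols came from the platform annotation, and promoter windows from RefSeq. Plots used matplotlib 3.10.9.

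Genes were named by rule: the 10 genes, from each list the up to 4 called genes of lowest p, or up to 2 genes if none was called, the 3 most similar profiles of each TCF gene, up to 3 called markers and Men1. The 10 genes and all lists were chosen with earlier results of these data known. The same-numbered arrays did not deviate together (correlations of -0.107, -0.313, -0.171 and 0.0459), so numbers were not used as pairs. Up to 21 alternatives were run per result: scaling, filters, eBayes options, array weights, sex, the replicate block, probe-set choice, the threshold and leaving out each array.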

Additional observations from a re-analysis of the deposited data

Results flagged for a closer look

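Arrays standing apart from the other 3 of their group by Dixon's rule were looked for in 108 groups of values, and 12 were found. Chance flags about 1 in 20 groups. That rate does not hold where the other 3 arrays share a value, as for Axin2, Wnt10a and Cd28, since any gap is then flagged.

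Among the 10 genes, Tcf7l2 1429428_at read 10.44 in control replicate 3, against 9.80 to 9.87 in the other controls, and that array brings the groups into overlap. Apc 1420956_at read 11.81 in control replicate 3, below the other controls at 11.99 to 12.02. Gsk3b 1439949_at read 7.77 in control replicate 2, below the other controls at 8.06 to 8.12. Axin2 1436845_at read 3.63 in control replicate 4, where the other 3 controls shared the value 3.59, so this gap is small in size.

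Among other pathway genes, control replicate 2 stood apart for Fzd7 (5.72 against 5.30 to 5.31), Cby1 (11.69 against 11.43 to 11.45) and Bcl9 (8.82 against 8.96 to 8.98). Lgr5, a stem-cell R-spondin receptor, read 11.56 in control replicate 3 against 11.97 to 12.01 in the other controls. In menin-deficient arrays Bcl9 read 9.10 in replicate 2 against 9.21 to 9.22, Bambi 6.30 in replicate 1 against 6.54 to 6.58, and Wnt10a 3.38 in replicate 4 against a shared 3.27. The T-cell gene Cd28 read 2.51 in control replicate 1 against a shared 2.49.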

How the results depend on the processing

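Of 1163 comparisons of a single value with its alternative, 956 kept direction and side of the threshold, 152 lost a call, 31 gained one and 24 changed sign. The call of Lef1 was kept throughout (0.45 to 0.63, or 0.52 to 0.63 without each array in turn). The 4 higher and 1 lower probe sets of the 10 genes became 2 and 2 with quantile normalization, and 1 and 2 after either centring. They became 1 higher without a filter, 0 lower with a 60th percentile filter (which removes Tcf7l1), 7 and 2 with array weights or at an adjusted p under 0.10, and 1 to 4 higher and 0 to 2 lower without each array. Without menin-deficient replicate 2 there were 1 and 0, without control replicate 1 or menin-deficient replicate 3 or 4 there was 1 higher, and without control replicate 2 or 4 there were 2 higher. The 2 higher genes and 1 lower gene became 1 higher after centring on the median tested gene, 4 higher with trended and robust eBayes, array weights or the looser threshold, 0 lower with the 60th percentile filter, and 2 to 3 higher and 1 lower without each array. The 16 higher pathway genes became 9 after either centring and 25 at the looser threshold, and the 8 lower became 5 without a filter. Without each array they were 10 to 16 higher and 3 to 6 lower.

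With the replicate block, which the check of same-numbered arrays does not back, the probe sets were 2 higher and 0 lower, the genes 1 and 0, and the pathway genes 10 and 3.

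Signs changed for some values. Axin1 1426966_at was -0.051 after quantile normalization, -0.060 and -0.11 after the 2 centrings and -0.060 to 0.065 without each array, and Axin1 1426967_at ran from -0.36 to 0.043. Gsk3b 1451020_at was -0.035, -0.047 and -0.10 under the same settings, -0.081 with array weights and -0.055 to 0.096 without each array. Centring on the median tested gene gave -0.053 for Ctnnb1 1420811_a_at, -0.047 for Gsk3b 1437001_at and -0.025 for Gsk3b 1439931_at, which was -0.021 with array weights and -0.0043 to 0.21 without each array. The mean of probe sets gave -0.13 for Lrp6 (as reported 0.22), and, for genes called as reported, 0.031 for Siah1a (-0.41), -0.067 for Bcl9 (0.25) and -0.044 for Ctnna1 (0.16). Myc ran from -0.21 to 0.060 without each array. The cause was not tested.

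The floor limits 8 of the 29 probe sets and all of Nkd1. The mean of probe sets has no counterpart in the probe-set fit.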

Other observations

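Outside the rule for named genes, Nkd2, the paralogue of Nkd1, was measured well above the floor. It read 9.01, 8.42, 8.15 and 8.10 in menin-deficient arrays, against 7.15, 5.94, 7.78 and 7.68 in controls. The groups did not overlap, but the difference of 1.28 ± 0.43 (SE) was not called (limma adjusted p = 0.0778). Nkd2 was chosen after its values were seen.

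Lgr5, also chosen after its values were seen, read 10.81, 11.40, 11.47 and 11.60 in menin-deficient arrays, against 11.97, 12.01, 11.56 and 11.97 in controls. The difference of -0.56 ± 0.19 (SE, adjusted p = 0.0797) was opposite in sign to that of its relative Lgr4 (2.13), and after centring on the median tested gene it was called (-0.68, adjusted p = 0.0445). The difference between the 2 genes was not tested.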
